A study of Mus musculus with 6 samples.

Results

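The genes described here encode 10 secreted or released defence proteins known from the airway lining and from the white blood cells that enter it: Lcn2, Ltf, Reg3g, Saa3, S100a8, S100a9, Slpi, Chi3l1, Hp and Lyz2. A probe set, the group of probes that reads 1 transcript on an Affymetrix array, was taken where the array's annotation names exactly 1 gene and that gene is one of the 10. Each of the 10 genes has 1 such probe set, so 10 of the 34945 probe sets that name 1 gene were read, for 10 of 18193 genes. Chi3l1 is listed under its later symbol Chil1. The group was selected on measured values in part, because Lcn2 reads higher in the knockout arrays, so the Lcn2 difference is given below as a description with no test.

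The arrays hold total RNA of whole mouse lungs taken at E18.5, late in gestation. Of the 6 Mouse430_2 arrays, 3 are labelled GATA6 KO (KO 1 to KO 3) and 3 wild type (WT 1 to WT 3). The series asks which genes the transcription factor GATA6 regulates in the lung. The labels name no strain, allele, Cre driver, sex or litter for either group, and they do not say whether each array holds 1 embryo. P-values therefore measure the spread between these arrays, which may be in part technical.

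The proteins of innate defence act before any antibody is made. Lactoferrin (Ltf) and lipocalin 2 (Lcn2) starve bacteria of iron, lactoferrin by binding iron itself and lipocalin 2 the bacterial siderophores that carry it. Lysozyme (Lyz2) and the lectin Reg3g attack the cell wall of Gram-positive bacteria. S100a8 and S100a9 pair into calprotectin, which withholds zinc and manganese. Slpi inhibits neutrophil elastase and cathepsin G, and Saa3 and Hp are acute phase proteins, Hp binding free haemoglobin. Chi3l1 is a chitinase-like lectin without enzyme activity. In adult tissues several of these genes are switched on by NF-kB and C/EBP factors downstream of inflammatory cytokines.

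The windows upstream of 4 genes are shown: Lcn2 and Saa3, which read higher in all KO arrays, and the neighbours S100a8 and S100a9, whose levels ran most alike over the arrays. Hp also read higher in all KO arrays, but no window was matched for it. No result below rests on the windows. Each window is 300 bases, 250 before and 50 after the annotated start, from RefSeq on build GRCm38.p6, printed 5′ to 3′ on the strand of the gene. Capitals mark every match, on either strand, to the motifs listed after them.
Lcn2, chr2:32387690-32387989, minus strand: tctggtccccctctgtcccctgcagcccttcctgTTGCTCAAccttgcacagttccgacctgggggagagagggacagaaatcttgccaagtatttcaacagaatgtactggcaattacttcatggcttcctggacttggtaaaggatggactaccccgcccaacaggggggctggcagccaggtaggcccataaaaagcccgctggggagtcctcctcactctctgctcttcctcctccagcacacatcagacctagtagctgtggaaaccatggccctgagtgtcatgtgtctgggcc
Saa3, chr7:46715627-46715926, minus strand: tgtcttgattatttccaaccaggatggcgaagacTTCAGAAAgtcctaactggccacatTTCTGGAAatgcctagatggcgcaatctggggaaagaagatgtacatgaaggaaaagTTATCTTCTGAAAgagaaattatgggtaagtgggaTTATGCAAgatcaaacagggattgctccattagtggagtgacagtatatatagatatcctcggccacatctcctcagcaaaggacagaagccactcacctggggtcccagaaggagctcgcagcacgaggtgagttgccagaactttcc
S100a8, chr3:90668821-90669120, plus strand: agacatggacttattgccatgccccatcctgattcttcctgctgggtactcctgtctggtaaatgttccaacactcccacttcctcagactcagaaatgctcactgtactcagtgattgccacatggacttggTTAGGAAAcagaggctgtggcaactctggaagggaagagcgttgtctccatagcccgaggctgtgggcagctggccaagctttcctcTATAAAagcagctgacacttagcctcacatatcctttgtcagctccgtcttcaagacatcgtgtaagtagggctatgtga
S100a9, chr3:90695672-90695971, minus strand: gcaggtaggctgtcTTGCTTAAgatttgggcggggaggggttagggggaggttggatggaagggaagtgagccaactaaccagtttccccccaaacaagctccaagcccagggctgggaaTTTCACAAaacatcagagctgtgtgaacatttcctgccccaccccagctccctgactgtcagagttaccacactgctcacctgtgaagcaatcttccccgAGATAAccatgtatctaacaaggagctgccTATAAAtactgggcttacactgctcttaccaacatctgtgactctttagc

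All motifs were searched on both strands. The motif of GATA factors was written as AGATAA, or with T in place of its first letter. The C/EBP motif was TTNCNNAA, the STAT motif TTCNNNGAA and the TATA box TATAAA, and the NF-kB consensus was searched as well. In Saa3 the GATA match, which ends at -129 from the start, and a C/EBP match share 1 base. RefSeq windows were matched for 9 of the 10 genes, all but Hp. A GATA match was found in 4 of the 9 (Ltf, Saa3, S100a9 and Slpi), against 18.61% of all 32851 windows in the table. A C/EBP match was found in 8 of the 9, all but Reg3g, against 40.68% of all windows. The NF-kB consensus was matched in Reg3g and Chi3l1 (8.46% of all windows), the letters TATAAA in Reg3g, S100a8 and S100a9 (13.62%) and STAT in none of the 9 (8.3%). In S100a8 TATAAA lies before the start, at -30 to -25, and in Reg3g at -27 to -22 and, on the other strand, -161 to -156. In S100a9 it begins at the annotated start itself, at 1 to 6. These matches describe letters in the windows and do not show that any factor binds there.

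Values are log2 of the deposited intensity plus a pseudocount of 16, which compresses the differences of dim genes. The median gene read 6.88 log2, and a gene is called dim here where both group means lie below that. The targeted gene was read first. On its brightest probe set Gata6 read 11.58, 11.39 and 11.19 log2 in the arrays labelled KO and 11.12, 10.26 and 10.42 in those labelled WT. It was thus not lower in the KO arrays, and each of them lay above every WT array. Its difference was 0.79 (SE 0.24), with an unadjusted p of 0.0182 and an adjusted p of 0.964 in limma, fitted with 1 probe set per gene. Where its probe set lies relative to the deleted part is not known here, so this level does not check the labels, and all directions below are between arrays as labelled. Further features of the arrays touch every value. KO 2, KO 3 and WT 1 carried more signal on bright probe sets with no gene name, at -0.86, -0.32 and -0.56 log2 relative to bright named ones, against -1.67 in KO 1, -1.68 in WT 2 and -1.57 in WT 3. Fluidics station 1 washed WT 1 and WT 2, and station 2 the other 4 arrays. All WT arrays went through the scanner ahead of the KO arrays, so that order and label cannot be told apart.

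Read across the 10 genes, the arrays labelled KO were not uniformly higher or lower. The difference, KO minus WT, was above 0 for 6 genes (Lcn2, Saa3, Chi3l1, Hp, Reg3g and Slpi) and below 0 for 4 (Ltf, S100a9, Lyz2 and S100a8), with a median of 0.24 log2. Over all 18193 genes 58.4% were above 0, with a median of 0.003. In 3 genes, Lcn2, Saa3 and Hp, all KO arrays lay above all WT arrays, and in 0 did all lie below. Over all genes 5.89% had all KO arrays above and 3.81% all below. Since Lcn2 was chosen for this pattern, nothing is read from the count of 3. Of the other 9 genes 2 did not overlap. By limma, with Benjamini-Hochberg adjustment over all 45037 probe sets, 0 of these 9 passed an adjusted p of 0.05, and all 9 had an adjusted p of 0.963. The share of all probe sets called was 0%, and 1394 (3.1%) had an unadjusted p under 0.05 in limma, among them 1 of the 9, Saa3. With 3 arrays per group, missing the threshold does not show that the groups are alike.

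**Figure D1:**
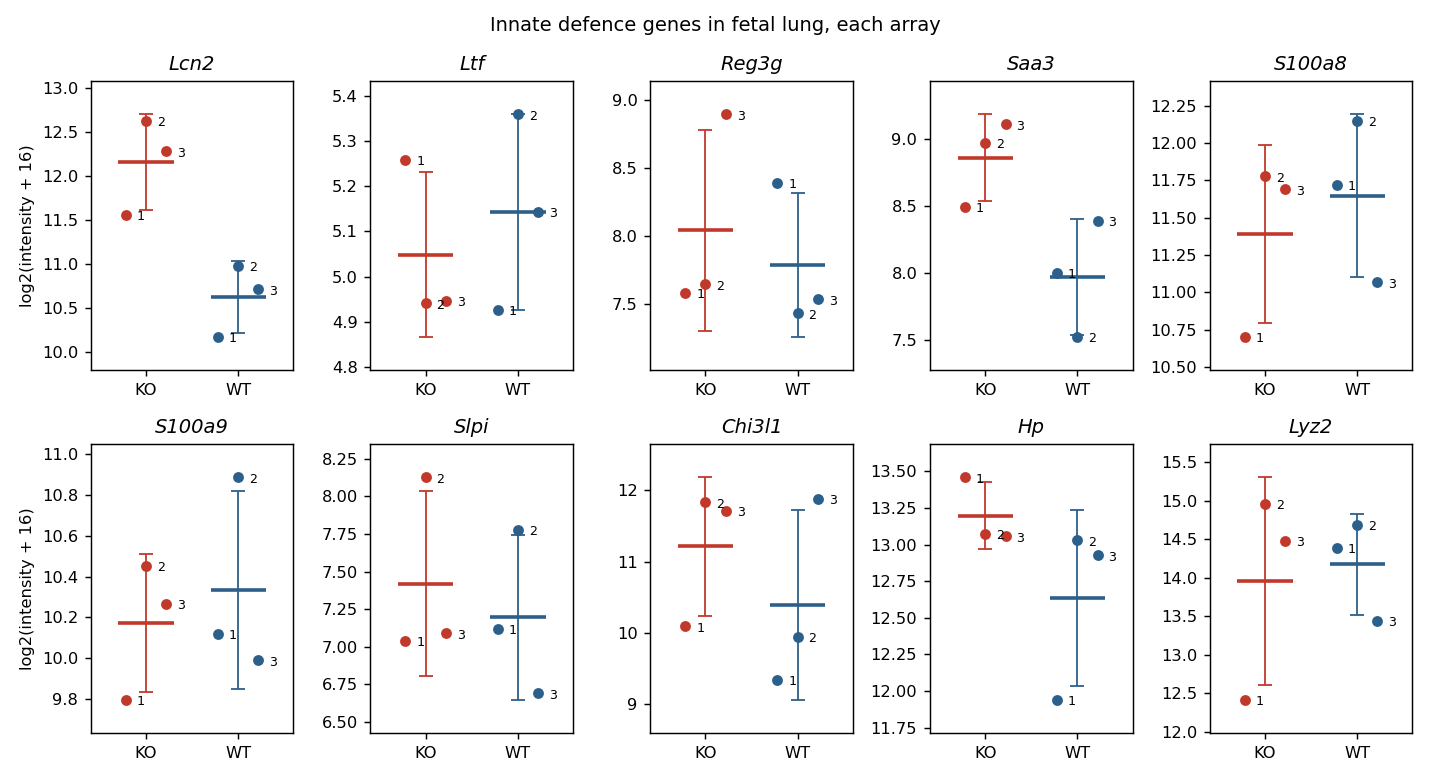
Level of each of the 10 genes in every array, in log2(intensity + 16), with KO arrays on the left and WT arrays on the right of each panel. Numbers mark arrays 1 to 3, the thick line is the group mean and the bar its SD (n = 3 arrays). In Lcn2, Saa3 and Hp the groups do not overlap. The vertical axes differ between panels and do not start at 0.

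Lcn2, the siderophore-binding lipocalin, had the largest difference of the 10. It read 11.56, 12.63 and 12.28 log2 in KO 1 to KO 3, against 10.17, 10.98 and 10.71 in WT 1 to WT 3. The lowest KO array lay 0.58 above the highest WT array. The means were 12.15 ± 0.54 in KO and 10.62 ± 0.41 in WT (SD, n = 3 each), 2.90-fold higher in the KO arrays, and the log2 difference was 1.54 (SE 0.33). The deposited intensities ran from 3002 to 6304 in the KO arrays and from 1135 to 1997 in the WT arrays. The difference stayed between 1.13 and 1.83 over 20 alternative settings, and was 1.44 (SE 0.46) within fluidics station 2, where WT is the single array WT 3. These settings reuse the values for which Lcn2 was chosen, so the range describes the difference and does not check it.

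The genes whose profile over the 6 arrays lay closest to that of Lcn2 were Dmkn, Aqp4, AU040972, Agr3 and Emb. Likeness was the root mean square distance between profiles after each gene's own mean was taken off. It was 0.27 log2 for Dmkn, a secreted epithelial protein, 0.29 for Aqp4, a water channel, 0.34 for AU040972, 0.35 for Agr3, a protein of airway ciliated cells, and 0.35 for Emb, an immunoglobulin-family membrane protein. Each of the 5 was picked for being like Lcn2, so each reads higher in the KO arrays by construction. Among the other 9 defence genes the closest was Saa3, at 0.55.

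Of the genes next to Lcn2 on chromosome 2, Ptges2 and 1110008P14Rik lie on either side. They differed by -0.49 (SE 0.37) and -0.25 (SE 0.27), and in both the KO and WT arrays overlapped.

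Saa3, an acute phase amyloid that mouse tissues outside the liver make, also read higher in every KO array than in any WT array, by a small margin. Its deposited intensities were 343, 486 and 536 in KO 1 to KO 3, against 240.1, 168 and 319 in WT 1 to WT 3. The lowest KO array lay 0.10 log2 above WT 3, the highest WT array. The log2 difference was 0.89 (SE 0.28), 1.85-fold on the linear scale, with an unadjusted p of 0.0197 and an adjusted p of 0.963 in limma. Within station 2 it was 0.47 (SE 0.33). The related genes Saa1, Saa2 and Saa4 were dim whichever the label, with Saa1 at 4.43 to 4.47 in KO and 4.45 to 4.49 in WT.

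Hp, the haemoglobin-binding haptoglobin, read 13.46, 13.08 and 13.06 in KO 1 to KO 3, against 11.94, 13.03 and 12.93 in WT 1 to WT 3. WT 1 stands far below the other 5 arrays, and the gap between the lowest KO and the highest WT array is 0.03. The difference was 0.56 (SE 0.31; adjusted p = 0.963 in limma), and without WT 1 it was 0.22. With each array centred on its median the groups overlapped by 0.10, so the gap depends on the scaling. The liver genes on the marker list were read beside it, since liver is the main adult source of haptoglobin. Alb read 10.30, 7.14 and 8.49 in KO 1 to KO 3, against 4.84, 8.19 and 8.21 in WT 1 to WT 3, so it too was highest in KO 1 and lowest in WT 1. Afp, the fetal relative of albumin, was also lowest in WT 1 but was highest in WT 2. It read 6.66, 4.96 and 6.59 in KO 1 to KO 3, against 4.88, 7.85 and 7.30 in WT 1 to WT 3. Ttr, a thyroid hormone carrier chosen after its values were seen, was likewise lowest in WT 1, at 4.47, and highest in WT 2, at 6.02. Of the 8 measured liver genes 7 read lowest in WT 1, as Hp did. WT 1 was also the lowest array for 10 of 18 macrophage and 7 of 10 airway secretory markers. It was the lowest for 1 of 11 type II and 0 of 10 type I markers. The share over all genes was not taken, so nothing is read from the count of 7. All of the 8 liver genes except Alb were dim, and the summed intensity of the liver list was 206 to 1402 in KO and 61.6 to 585 in WT. The part of liver RNA in the Hp values was not tested.

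Chi3l1, the chitinase-like lectin, varied more within the groups than between them. It read 10.09, 11.83 and 11.72 in KO 1 to KO 3, against 9.34, 9.94 and 11.89 in WT 1 to WT 3. KO 2, KO 3 and WT 3 were high and the other 3 arrays low. The difference was 0.82 (SE 0.79; adjusted p = 0.963 in limma), and within station 2 it turned to -0.67 (SE 0.80). It was 1.57 without WT 3 and 1.39 without KO 1, but 0.51 without KO 2 and 0.30 without WT 1.

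S100a8 and S100a9, the partners in calprotectin, ran together over the arrays. S100a8 read 10.70, 11.78 and 11.69 in KO 1 to KO 3, against 11.72, 12.15 and 11.07 in WT 1 to WT 3. S100a9 read 9.80, 10.45 and 10.27 in KO 1 to KO 3, against 10.12, 10.89 and 9.99 in WT 1 to WT 3. KO 1 was the lowest and WT 2 the highest array for both genes, and the groups overlapped. Their profiles lay 0.23 log2 apart, the smallest distance among the 45 pairs of the 10 genes, which ran up to 1.26 between Chi3l1 and Lyz2. The 2 genes are neighbours on chromosome 3. The differences were -0.26 (SE 0.39) for S100a8 and -0.16 (SE 0.29) for S100a9 (adjusted p = 0.963 for both in limma). Without KO 1 they were 0.09 and 0.03, within station 2 they were 0.32 and 0.18, and without WT 2 that of S100a9 was 0.12.

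Neutrophils are the best known source of calprotectin, lactoferrin and lipocalin 2, so the neutrophil and granule markers were read beside these genes. All 13 measured markers were dim in both groups. Ly6g, Retnlg and Cebpe, which are on the same list, were not measured. Elane, neutrophil elastase, read 4.34 to 4.38 in KO and 4.34 to 4.35 in WT, and Mpo, myeloperoxidase, read 4.31 to 4.32 in KO and 4.31 in every WT array. Camp and Ngp were chosen after their values were seen. Camp, a granule peptide, averaged 4.92 in KO and 4.92 in WT. The marker with most signal, Ngp, averaged 6.09 in KO and 6.30 in WT (difference -0.21, SE 0.34). The summed intensity of the list was 168 to 208 in KO and 175 to 236 in WT. Ltf itself was dim as well: lactoferrin read 5.26, 4.94 and 4.95 in KO 1 to KO 3, against 4.93, 5.36 and 5.14 in WT 1 to WT 3. Its difference was -0.09 (SE 0.15; adjusted p = 0.963 in limma), and without WT 2 it was 0.01. Both groups thus lay close to the floor of the scale for Ltf.

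Slpi, the inhibitor of neutrophil elastase, followed S100a9 at a distance of 0.32. It read 7.04, 8.13 and 7.09 in KO 1 to KO 3, against 7.12, 7.78 and 6.69 in WT 1 to WT 3. The arrays numbered 2 were highest in both groups. The difference was 0.22 (SE 0.42; adjusted p = 0.963 in limma) and it turned to -0.13 without KO 2 and -0.03 without WT 3. Reg3g, the lectin against Gram-positive bacteria, read 7.59, 7.65 and 8.89 in KO 1 to KO 3, against 8.39, 7.43 and 7.54 in WT 1 to WT 3. KO 3 and WT 1 stood above the other 4 arrays, which lay between 7.43 and 7.65. KO 3 and WT 1 are also the arrays with the most signal on unnamed probe sets, and with that measure as a covariate the Reg3g difference of 0.25 (SE 0.45) became -0.02 (SE 0.24). Without KO 3 the difference was -0.17, and its adjusted p in limma was 0.963 with all arrays and no covariate.

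**Figure D2:**
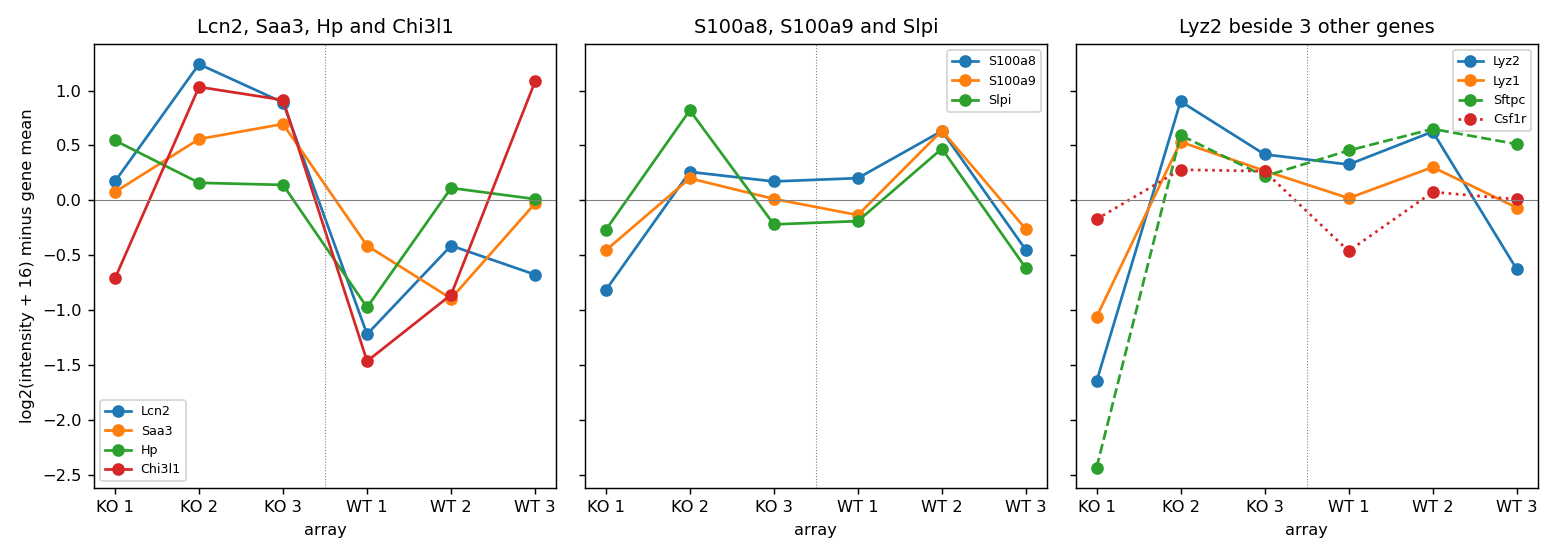
Level of each gene in each array minus that gene's mean over all 6 arrays, in log2(intensity + 16), with KO arrays left of the dotted line and WT arrays right of it. Lcn2, Saa3 and Hp lie higher in the KO arrays, and S100a8 and S100a9 follow each other across both groups. Lyz2, Lyz1 and Sftpc are lowest in KO 1. The type II list, not drawn here, is lowest in KO 3 by mean level and in KO 1 by summed intensity.

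Lyz2, the lysozyme of macrophages that fetal alveolar type II cells also make, spread over 2.55 log2 between arrays, as did Chi3l1, and Lcn2 spread over 2.46. It read 12.42, 14.97 and 14.48 in KO 1 to KO 3, against 14.39, 14.69 and 13.44 in WT 1 to WT 3. KO 1 stood lowest and KO 2 highest, with all WT arrays between them. The means were 13.96 ± 1.35 in KO and 14.17 ± 0.65 in WT (SD, n = 3 each), a difference of -0.22 (SE 0.72; adjusted p = 0.963 in limma), without KO 1 it was 0.55 and without WT 2 0.04. The neighbouring and closely similar Lyz1, whose transcripts the probes may not separate from those of Lyz2, read 14.25, 15.84 and 15.58 in KO 1 to KO 3, against 15.33, 15.61 and 15.24 in WT 1 to WT 3, with KO 1 again lowest. Sftpc, the surfactant protein that defines alveolar type II cells, read 12.71 in KO 1, against 15.36 to 15.80 in the other 5 arrays. Of the 11 type II markers, 4 read lowest in KO 1 and 7 did not. Sftpb, another surfactant protein, read 12.36, 12.70 and 12.09 in KO 1 to KO 3, against 12.09, 12.77 and 12.54 in WT 1 to WT 3. Abca3, the lipid transporter of surfactant storage, was lowest in KO 3, at 11.26, 10.64 and 6.12 in KO 1 to KO 3, against 11.70, 12.21 and 12.29 in WT 1 to WT 3. The mean level of the type II list was 11.42, 12.13 and 11.32 in KO 1 to KO 3, against 11.97, 12.30 and 11.89 in WT 1 to WT 3. By this mean KO 3 was lowest. The summed intensity of the same list, which includes Sftpc, was lowest in KO 1. It was 52742, 140874 and 107801 in KO 1 to KO 3, against 109933, 134918 and 99964 in WT 1 to WT 3. The macrophage list was read beside these values. Its mean level was 7.82, 8.21 and 8.15 in KO 1 to KO 3, against 7.86, 8.35 and 8.03 in WT 1 to WT 3. Its summed intensity was 23847 to 65411 in KO and 44142 to 57245 in WT, a sum that includes Lyz1. The part of either cell type in the Lyz2 values was not tested, and in whole lung fewer cells of a type and less RNA per cell cannot be told apart.

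**Figure D3:**
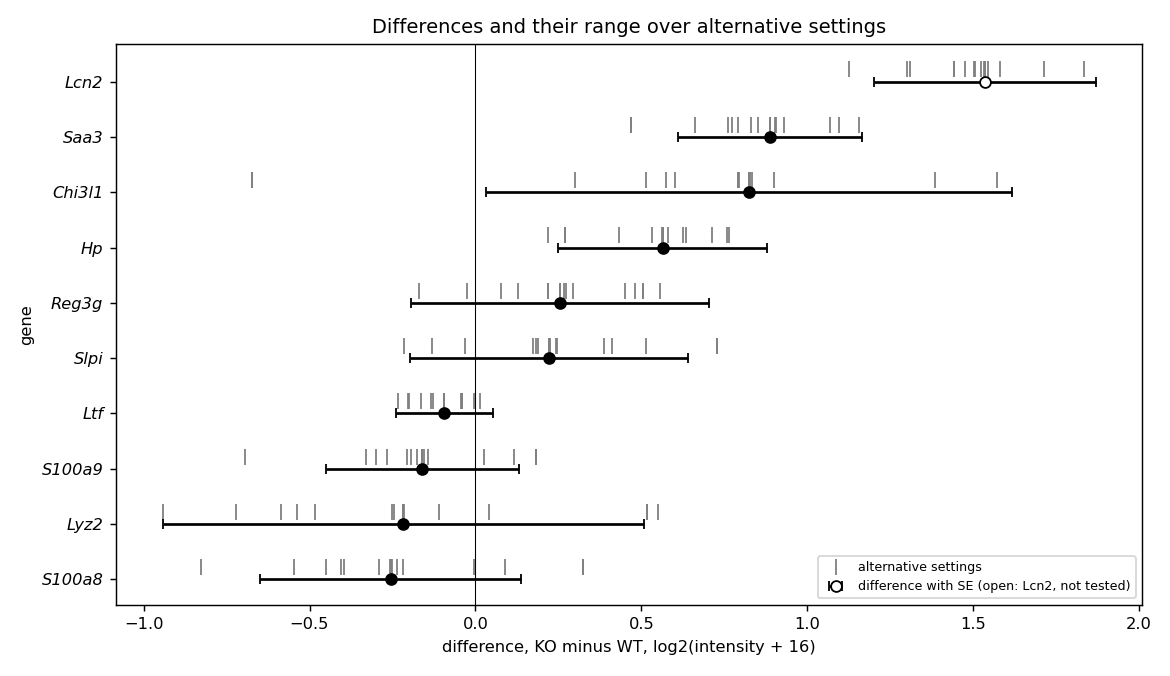
Difference between KO and WT arrays for each gene in log2(intensity + 16), with points for the difference, bars for its SE from limma (n = 3 arrays per group), and grey ticks for the same difference under up to 20 alternative settings. The ticks of Lcn2, Saa3 and Hp all lie above 0, and those of the other 7 genes lie on both sides of it. Lcn2 was chosen for reading higher in KO, so its ticks are a description only.

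The wider defence network was read from lists of genes, each gene represented by its brightest probe set and limma fitted over the 18193 genes, where 0.0055% were called and 4.58% had an unadjusted p under 0.05. Of the 167 genes measured on 12 lists, 0 passed, with a lowest adjusted p of 0.798. All KO arrays lay above all WT arrays in 8.98% and below in 4.79%, against 5.89% and 3.81% of all genes. These shares count dim genes too, and the lists were chosen with earlier results of these data known. Nothing is therefore read from the excess over all genes.

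Among other secreted defence genes 18 of 28 differed above 0 and 10 below, with a median of 0.005, and 19 were dim. In 4 all KO arrays lay above all WT arrays, and in 4 below. Chia1, an acidic chitinase, read 5.16, 6.60 and 6.10 in KO 1 to KO 3, against 8.16, 8.25 and 10.77 in WT 1 to WT 3 (difference -3.11, SE 0.80; adjusted p = 0.927 in limma). Its KO arrays thus lay well below every WT array. Muc1, a mucin of the cell surface, differed by -1.07 (SE 0.19; adjusted p = 0.798). Sftpd, a surfactant collectin that binds microbes, differed by 0.99 (SE 0.23; adjusted p = 0.85). Wfdc2, a relative of Slpi, and the chemokine Cxcl15, both chosen after their values were seen, differed by 0.82 (SE 0.24) and -0.64 (SE 0.21). Bpifa1 and Bpifb1, abundant in adult airways, were dim, at 4.55 in KO and 4.44 in WT for Bpifa1 and 5.19 in KO and 5.40 in WT for Bpifb1.

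Among the other acute phase genes 16 of 21 differed above 0 and 5 below, with a median of 0.01, and 15 were dim. In 5 all KO arrays lay above all WT arrays, and in 0 below. The metallothionein genes Mt1 and Mt2, which bind zinc, were among the 5. Mt1 read 13.60, 12.83 and 13.04 in KO 1 to KO 3, against 12.11, 11.28 and 11.44 in WT 1 to WT 3 (difference 1.55, SE 0.29; adjusted p = 0.829 in limma), and Mt2 differed by 1.42 (SE 0.37). Lrg1, a leucine-rich glycoprotein, read 9.09, 7.49 and 6.56 in KO 1 to KO 3, against 5.18, 5.99 and 6.54 in WT 1 to WT 3, so that KO 3 barely cleared WT 3. Its difference was 1.81 (SE 0.71; adjusted p = 0.964).

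The cytokines, receptors and factors upstream were split between both directions. Of 27 measured, 15 differed above 0 and 12 below, with a median of 0.006, and 2 lay wholly above and 1 wholly below. Il6 and Il1a, cytokines that induce acute phase genes, were at the floor, at 4.35 in KO and 4.34 in WT for Il6. Nfkbia, the NF-kB inhibitor that NF-kB itself induces, differed by 0.16 (SE 0.11), and Cebpd, a C/EBP factor of the acute phase, by -0.28 (SE 0.12; adjusted p = 0.964 in limma for both). Among 12 receptors, partners and targets of the defence proteins 8 differed above 0 and 4 below (median 0.008), and in 0 did the groups not overlap. The lipocalin 2 receptors Slc22a17 and Lrp2 were dim and differed by 0.25 (SE 0.27) and 0.17 (SE 0.30). For iron handling 8 of 13 differed above 0 (median 0.04), Tfrc, the transferrin receptor, by 0.12 (SE 0.25) and the dim Tfr2, a second one, by 0.02 (SE 0.02).

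Markers of the cells a whole lung can hold place these values. Airway secretory markers had 7 of 10 above 0 (median 0.32), with mean levels of 10.45 to 10.48 in KO and 9.63 to 10.38 in WT. As deposited, this mean did not overlap. WT 1 lay at 9.63 and was the lowest array for 7 of the 10 markers. WT 2 and WT 3, at 10.37 and 10.38, lay just under the lowest KO array. So small a gap may depend on the scaling, as that of Hp did, which was not tested for this list. Their summed intensity did overlap, at 76438 to 83857 in KO and 58159 to 93974 in WT. Scgb1a1, which defines club cells, differed by -0.42 (SE 0.30). The secretoglobins Scgb3a1 and Scgb3a2 differed by 0.41 (SE 0.52) and 0.24 (SE 0.13), the groups overlapping for Scgb3a1 and not for Scgb3a2. Cyp2f2, a club cell enzyme, differed by 1.36 (SE 0.59), without overlap. The part of airway secretory cells in the Lcn2 and Saa3 values was not tested. Alveolar type I markers were below 0 in 10 of 10 (median -1.23). Their mean level was 10.49, 12.47 and 11.39 in KO 1 to KO 3, against 12.87, 12.80 and 12.25 in WT 1 to WT 3, so KO 1 stood lowest and KO 2 lay above WT 3. Cldn18, a tight junction protein, and Akap5, a kinase anchor, differed by -3.04 (SE 0.68) and -2.12 (SE 0.51) without overlap, and Ager and the water channel Aqp5 by -0.45 (SE 0.23) and -1.25 (SE 0.75) with overlap. Alveolar type II markers were below 0 in 9 of 11 (median -0.28). Macrophage markers were above 0 in 8 of 18 and below in 10 (median -0.06), with Csf1r, a growth factor receptor, at 0.25 (SE 0.20) and Adgre1 at 0.01 (SE 0.23). Red blood cell markers were above 0 in 3 of 8 (median -0.10), 5 of the 8 dim, among them the globin genes Hba-a1 and Hba-a2 at 0.005 (SE 0.006) and 0.15 (SE 0.12).

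**Figure D4:**
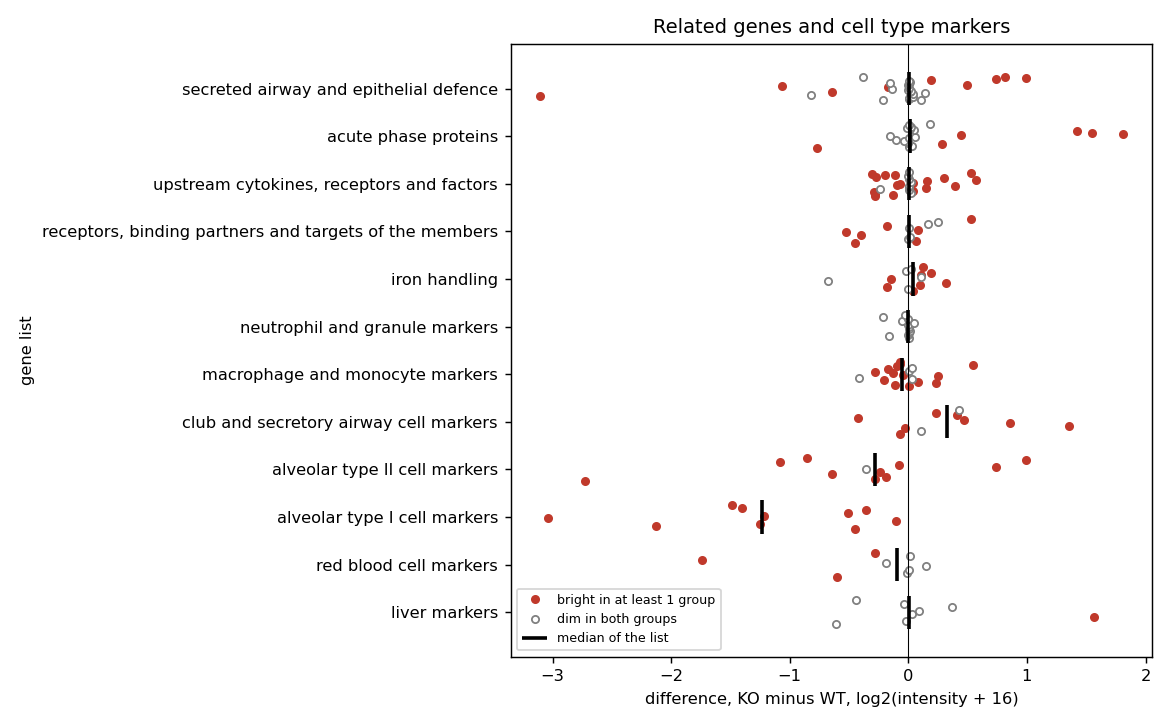
Difference between KO and WT arrays for every measured gene of the 12 lists, in log2(intensity + 16). Filled points are genes bright in at least 1 group, open points are dim in both, and the black line is the median of the list. All neutrophil markers are open points near 0, and all alveolar type I markers lie below 0.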

How the data were processed

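Total RNA of 6 fetal mouse lung samples was hybridised to Mouse430_2 arrays, 3 per group as labelled. The authors deposited linear intensity values; GCRMA and MAS5, without version or role, are listed per the submitters' processing notes, and the labels do not state how arrays were scaled. No value is negative, and array medians run from 20.6 to 24.1, so no further scaling was applied. Probe sets (45101, of which 64 controls were left out) were named by gene ID with RefSeq genes of GRCm38.p6.

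The log2 values, computed from the deposited intensities plus 16, were fitted with limma 3.58.1 in R 4.3.3 (lmFit, eBayes with intensity trend, two-sided, Benjamini-Hochberg over all 45037 probe sets). No dim filter was applied. All probe sets of the 10 genes are given. In lists, the first 2 measured genes and up to 3 bright genes with non-overlapping groups and the largest difference are named, and others where the text says so or beside a gene of the 10 (Saa4, Lyz1). The 10 genes and the lists were chosen with earlier results of these data known. Same-numbered arrays were not taken as pairs: their deviations from group means correlated at -0.757, 0.02 and -0.483. The fit was also run on simulated data with independent normal noise. Those data held no effect of station, scan order or signal on unnamed probe sets, so the run does not check the fit for these.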

Additional observations from a re-analysis of the deposited data

How the results depend on the processing

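None of the 9 tested genes passed in limma under any of 20 settings. Over those settings Lcn2 (1.13 to 1.83), Saa3 (0.47 to 1.16) and Hp (0.22 to 0.76) stayed above 0. For Lcn2, chosen for reading higher in KO, this is a description only. Under the station block, with the same values within station 2, S100a8 (0.3231), S100a9 (0.1819) and Lyz2 (0.5169) turned above 0 and Chi3l1 (-0.6719) below. Array weights turned Slpi to -0.2143, and the composition covariate turned Reg3g to -0.02482; the cause was not tested. Leaving out each array gave -0.2025 to 0.01413 for Ltf, -0.1709 to 0.5564 for Reg3g, -0.5453 to 0.08846 for S100a8, -0.3308 to 0.1175 for S100a9, -0.1317 to 0.5136 for Slpi, -0.7229 to 0.5513 for Lyz2 and 0.299 to 1.572 for Chi3l1. Of all 45037 probe sets 0 were called, but 1 was with median centring, 37 with station as a block, and 1 gene with either rule of 1 value per gene. Over genes 1 was called, but 0 without the trend, 0 with the replicate block, 0 with the composition covariate, 32 with station as a block and 10 within station 2, and leaving out each array gave 0 to 1. All KO arrays lay above all WT arrays in 3 members, in 2 with median centring (which ends it for Hp), in 5 within station 2 and in 3 to 4 without single arrays. Leaving out arrays lowers the bar, most of all within station 2, where only WT 3 has to be cleared. The share over all genes was 5.89% with all arrays and was not taken under the other settings, so nothing is read from these counts. With the replicate block 0 members passed (adjusted p = 1 for all 9). Station 2 holds 1 WT array, which is assumed to vary like the KO arrays. The station 2 fit, the composition covariate and the count of members without overlap were chosen after seeing the data. The filter on dim probe sets left no Ltf value.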
